A study of Drosophila melanogaster with 10 samples.

Results

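The genes described here are 10 members of the serpin family of Drosophila melanogaster: Spn27A, Spn28Dc, Spn42Da, Spn42Dd, Spn43Aa, Spn55B, Spn77Ba, Spn88Ea, Spn88Eb and nec. They were chosen by gene symbol, and every probe set that the platform annotation assigns to one of them was taken, 11 probe sets in all. The array names 11982 genes through 18769 fly probe sets. SL2 cells, an established line from embryos, received dsRNA against Tip60 on 6 arrays and dsRNA against eGFP, a mock target that fly cells lack, on 4 arrays. The 3 dsRNAs against Tip60 had 2 arrays each and are named by their position in the Tip60 sequence, 190-807, 603-1116 and 1321-1618. The first of these overlaps the next by 205 nucleotides. All cells were kept at 26°C in 10% serum with 10 µg of dsRNA and were harvested after 5 days. No other allele or agent is named in the labels. The labels do not say whether arrays of one treatment were separate cultures. The p-values therefore reflect only how much these samples varied, which may be technical.

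Serpins are protease inhibitors that work by suicide. The protease cuts a loop exposed at the surface of the serpin, the serpin changes its fold, and the enzyme stays trapped on it. In flies, serpins hold back the serine protease cascades in the hemolymph that activate the ligand of the Toll receptor and the prophenoloxidases of melanization. Tip60 is a histone acetyltransferase within a chromatin remodelling complex, and the study asked which transcripts change when it is depleted.

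Serpin transcripts did not move together after Tip60 RNAi. Spn88Eb rose 4.76-fold, and the rise was seen on every array with each dsRNA. Spn77Ba, an inhibitor of melanization in the airways, fell to 0.69 times its eGFP level, and Spn55B to 0.78 times. Spn42Da rose by 1.47-fold through 1 of its 2 probe sets, while the other changed by 1.07-fold and did not pass the test. The rise lost its call under 3 other scalings of the arrays. Spn27A and Spn88Ea rose by 1.13-fold and 1.14-fold, changes that other scalings of the arrays removed or turned round. Spn28Dc did not pass the test as deposited and was called lower under 3 other scalings of the arrays. Spn42Dd, Spn43Aa and nec lay too close to background to be measured.

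The Tip60 transcript itself had signals between 209 and 400 on the 6 Tip60 RNAi arrays, against 1138 to 1339 on the 4 eGFP arrays. The log2 difference was −2.04, and an exact permutation test, two-sided, gave p = 0.00476, the smallest that 210 splits can give (0.00714 adjusted over 3 measures of this kind). Signals are linear values that the authors scaled to the same trimmed mean on every array, so each change is relative to the array and is not an amount per cell. Control RNAs spiked into the hybridization gave a mean log2 signal 0.55 higher with Tip60 RNAi (exact permutation p = 0.0143, adjusted 0.0143). For the poly-A controls, added to the RNA before labelling, the difference was 0.75 (exact permutation p = 0.00476, adjusted 0.00714). The dimmest of 4 equal brightness classes of probe sets tested had a median log2 change of 0.49. In cultured cells, fewer cells that express a gene and less RNA per cell cannot be told apart.

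A probe set was tested if its mean signal reached 34.5, the 40th percentile of fly probe sets, and called at an adjusted p under 0.05 (limma, Benjamini-Hochberg over all 11261 probe sets tested). Of the 10 serpin genes 7 passed this filter and 3 did not. Counted by the brightest probe set of each gene, 3 of the 7 were higher after Tip60 RNAi, 2 were lower and 2 were not called. The counts depended on how arrays were scaled. With arrays centred on their median or scaled to the poly-A spike-ins 1 was higher and 6 were lower, with the hybridization spike-ins 1 and 3, and centring on brighter probe sets left 1 and 2. Calls over all probe sets moved as well, from 2002 higher and 1883 lower as deposited to 227 and 6766 with the poly-A spike-ins. Over all 8290 genes tested the rule as deposited called 17.5% higher and 19.7% lower, and nothing particular to the family is read from these counts. The median log2 change was 0.10 over the 7 serpins and 0.03 over all genes tested. The Tip60 RNAi arrays lay all above the eGFP arrays for 2 of the 7 genes and all below them for 2, against 12.8% and 15.4% of all genes tested.

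**Figure D1:**
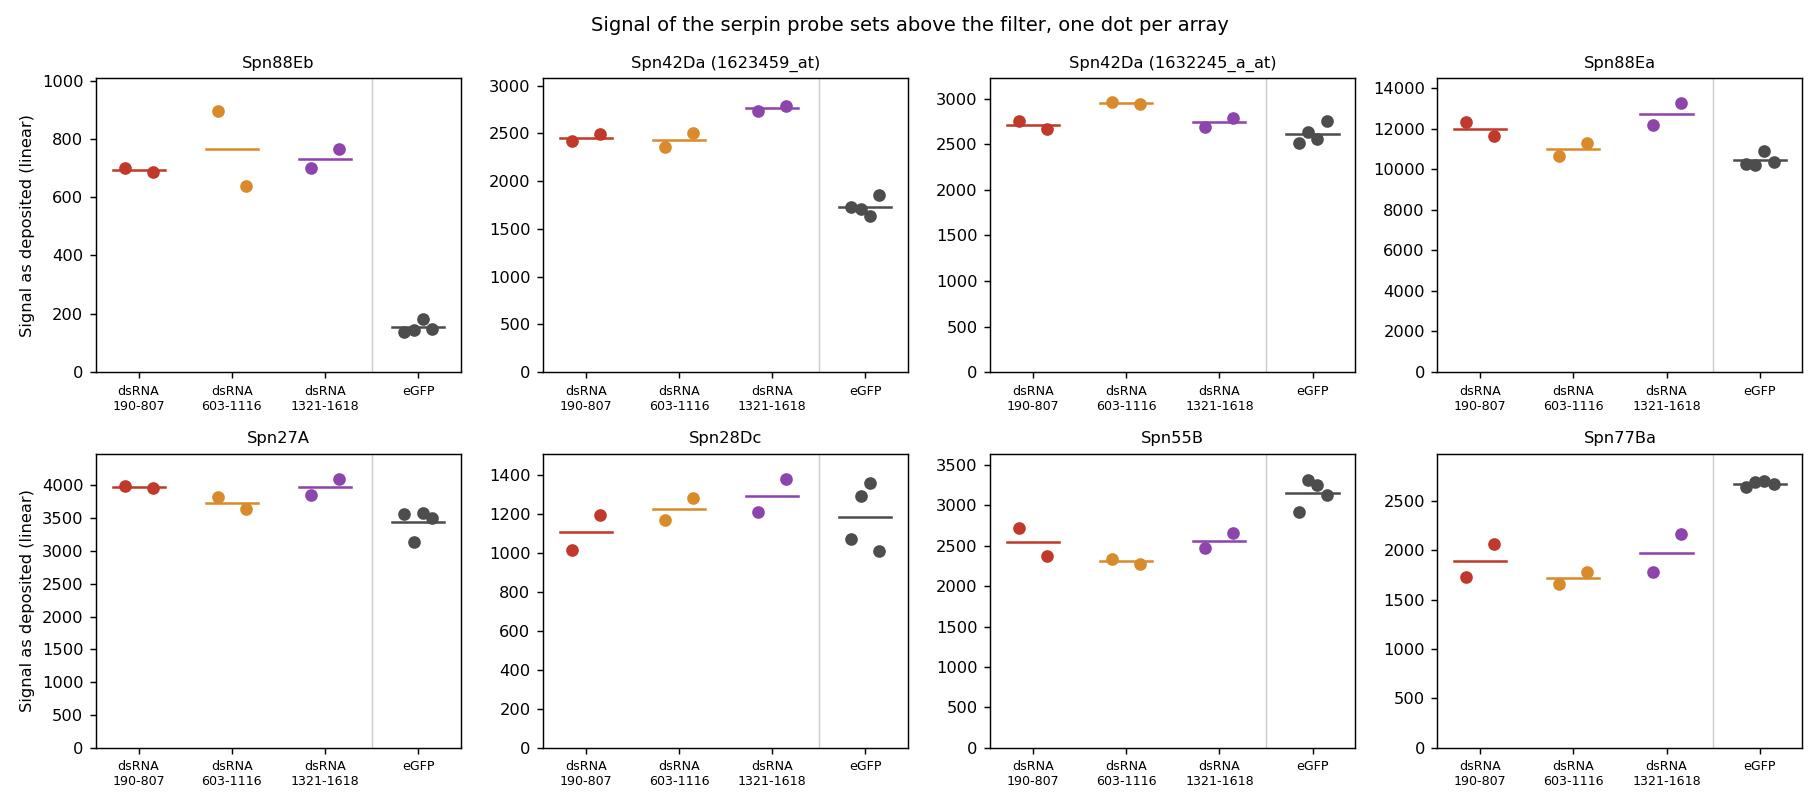
Deposited signal (linear axis from 0) of the 8 serpin probe sets above the filter, with 1 dot per array, lines at the group means, and the 3 Tip60 dsRNAs to the left of eGFP. Spn88Eb stands apart, with 637 to 895 on the Tip60 RNAi arrays against 139 to 181 on the eGFP arrays, while Spn55B and Spn77Ba lie lower on all 6 Tip60 RNAi arrays.

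Among the inhibitors of the Toll and melanization cascades, Spn77Ba fell. It keeps the phenoloxidase cascade in check in the tracheae. Its signal was 1723 and 2058 with dsRNA 190-807, 1659 and 1781 with dsRNA 603-1116 and 1780 and 2166 with dsRNA 1321-1618, against 2635, 2690, 2699 and 2673 on the eGFP arrays. The groups did not overlap, and the eGFP arrays were closer to each other (SD 28.5, n = 4) than the Tip60 RNAi arrays were (SD 202, n = 6). The log2 change was −0.53 (SE 0.08, limma adjusted p = 4.98e-05). Each dsRNA on its own called the fall, with log2 changes between −0.64 and −0.45 and adjusted p-values of 0.00163, 0.000222 and 0.00365 in the order of their positions. The probe set carries the suffix that Affymetrix gives to sets whose probes can match more than 1 transcript, and probe sequences were not used here. Its neighbours Spn77Bb and Spn77Bc, the next serpin genes along the chromosome, were below the filter.

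Spn27A blocks Toll activation in the early embryo and also restrains the enzyme that activates prophenoloxidase in the larva. Its signal was 3986 and 3953 with dsRNA 190-807, 3818 and 3645 with dsRNA 603-1116 and 3853 and 4098 with dsRNA 1321-1618, against 3558, 3142, 3585 and 3505 on the eGFP arrays. All 6 Tip60 RNAi arrays were above all 4 eGFP arrays, but the lowest of them, 3645, was close to the highest eGFP array, 3585. The log2 change was 0.18 (SE 0.06, limma adjusted p = 0.029). None of the dsRNAs reached the threshold alone (adjusted p 0.0724, 0.285 and 0.0675). Without eGFP replicate 2-2 the adjusted p was 0.119 and without replicate 2 of dsRNA 1321-1618 it was 0.0527, so that either fit lost the call, and the sign turned under 3 scalings of the arrays, as described below.

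Spn88Ea, which in flies restrains Toll signalling, gave a similar picture. Its signal was 12326 and 11622 with dsRNA 190-807, 10656 and 11310 with dsRNA 603-1116 and 12171 and 13257 with dsRNA 1321-1618, against 10271, 10199, 10898 and 10375 on the eGFP arrays. The arrays of dsRNA 603-1116 overlapped the eGFP arrays and those of the other 2 dsRNAs did not. The log2 change was 0.19 (SE 0.06, limma adjusted p = 0.0342). By dsRNA it was 0.20, 0.07 and 0.28, and only the last was called (adjusted p = 0.0132). The dsRNAs were not shown to differ, since an F-test among them gave an adjusted p of 0.594. Of 10 fits without a single array, 6 lost the call: those without eGFP replicate 2-1, 2-2 or 3-2, without either array of dsRNA 1321-1618, and without replicate 1 of dsRNA 190-807, with adjusted p-values of up to 0.0865. This probe set carries the same suffix for shared probes.

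Spn28Dc limits melanization after injury. Its signal was 1018 and 1195 with dsRNA 190-807, 1173 and 1284 with dsRNA 603-1116 and 1211 and 1379 with dsRNA 1321-1618, against 1075, 1292, 1362 and 1013 on the eGFP arrays. The groups overlapped over almost their whole range. The log2 change was 0.03 (SE 0.10, limma adjusted p = 0.824), with a 95% confidence interval from −0.18 to 0.24.

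Not measurable were nec and Spn42Dd, which have a known place in these cascades, and Spn43Aa, for which none is given here. nec, the inhibitor of the Persephone branch that activates Toll, had signals of 53.6 and 10.6 with dsRNA 190-807, 45.4 and 11.5 with dsRNA 603-1116 and 22.3 and 23.7 with dsRNA 1321-1618, against 13.0, 13.0, 13.8 and 13.0 on the eGFP arrays. Replicate 1 of dsRNAs 190-807 and 603-1116 was above the filter level and replicate 3 of both was below the eGFP arrays. Spn42Dd, which acts on the Toll branch started by a fungal recognition protein, ranged from 6.58 to 59.3 on the Tip60 RNAi arrays and from 6.31 to 77.8 on the eGFP arrays. Spn43Aa ranged from 3.60 to 37.1 on the Tip60 RNAi arrays and from 2.50 to 33.4 on the eGFP arrays. The groups overlapped over most of their range for Spn42Dd and Spn43Aa. With no filter, limma gave adjusted p-values of 0.482 for nec, 0.72 for Spn42Dd and 0.338 for Spn43Aa, with 95% intervals of the log2 change from −0.65 to 2.29, from −2.36 to 1.24 and from −0.52 to 3.31 in the same order.

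**Figure D2:**
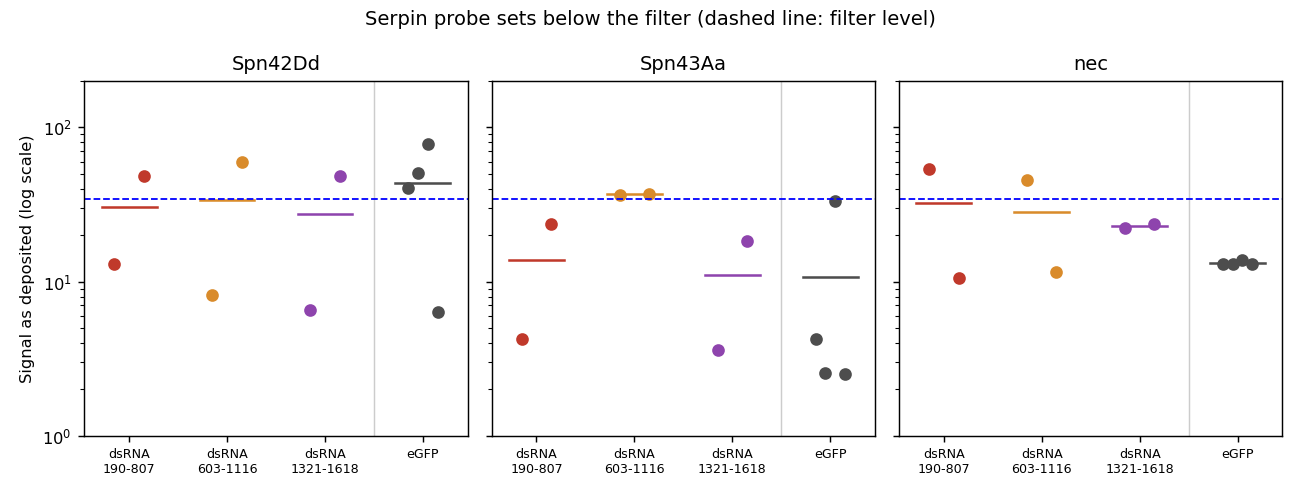
Deposited signal (log axis) of Spn42Dd, Spn43Aa and nec, with 1 dot per array, lines at the arithmetic group means and a dashed line at the filter level of 34.5. Arrays of both treatments cross the line for Spn42Dd, and only Tip60 RNAi arrays do for Spn43Aa and nec. The signal of nec is near 13 on all 4 eGFP arrays.

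Spn42Da encodes several protein isoforms that differ in the loop that proteases cut, among them a secretory-pathway inhibitor of the proprotein convertase furin. Its 2 probe sets disagreed. Probe set 1623459_at had 2419 and 2494 with dsRNA 190-807, 2357 and 2509 with dsRNA 603-1116 and 2736 and 2791 with dsRNA 1321-1618, against 1728, 1709, 1630 and 1859 on the eGFP arrays. Every Tip60 RNAi array was above every eGFP array, for a log2 change of 0.56 (SE 0.07, limma adjusted p = 8.02e-06), and each dsRNA was called on its own.

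Probe set 1632245_a_at, the brighter of the pair and the one by which the gene was counted, had 2759 and 2668 with dsRNA 190-807, 2963 and 2939 with dsRNA 603-1116 and 2693 and 2790 with dsRNA 1321-1618, against 2511, 2641, 2555 and 2758 on the eGFP arrays. The groups overlapped, and the log2 change of 0.10 (SE 0.06, 95% interval −0.02 to 0.22) was not called (limma adjusted p = 0.211). With the gene taken as the mean of both sets, the log2 change was 0.33 (limma adjusted p = 0.000225), and Spn42Da then counted among the genes that rose. Which transcripts of the gene each set detects was not examined here.

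The disagreement is described within arrays, where the scaling of an array cancels. The log2 ratio of 1623459_at to 1632245_a_at lay between −0.33 and 0.02 on the Tip60 RNAi arrays (mean −0.14 ± 0.14, SD, n = 6) and between −0.65 and −0.54 on the eGFP arrays (mean −0.60 ± 0.05, n = 4). The means differed by 0.46, and the groups did not overlap. The ratio was highest with dsRNA 1321-1618 (0.02 and 0.00019) and lowest among the Tip60 arrays with dsRNA 603-1116 (−0.33 and −0.23). This ratio was chosen after the values of the probe sets were seen, so no test is given.

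Fur2, a furin-type convertase, had 3463 ± 396 on the Tip60 RNAi arrays and 3598 ± 213 on the eGFP arrays (SD, n = 6 and 4; log2 change −0.06, limma adjusted p = 0.604). With dsRNA 190-807 alone Fur2 was called lower (log2 change −0.28, limma adjusted p = 0.0149). Its mean there was 2958 ± 20.2 (SD, n = 2). The other dsRNAs gave log2 changes of 0.05 each and were not called. A limma F-test among dsRNAs gave an adjusted p of 0.298. Of the 3 convertases listed, 2 were on the array and amon was below the filter.

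Spn88Eb was the member that changed most. Its signal was 698 and 686 with dsRNA 190-807, 895 and 637 with dsRNA 603-1116 and 698 and 765 with dsRNA 1321-1618, against 139, 145, 181 and 148 on the eGFP arrays. The lowest Tip60 RNAi array stood far above the highest eGFP array. The mean was 730 ± 90.5 (SD, n = 6) on the Tip60 RNAi arrays and 153 ± 19.0 (n = 4) on the eGFP arrays, a log2 change of 2.25 (SE 0.13, limma adjusted p = 1.5e-09). It ranked 77 of 11261 probe sets by rise. By dsRNA the log2 change was 2.18, 2.31 and 2.26, each with an adjusted p of at most 1.03e-06, and the F-test among dsRNAs gave an adjusted p of 0.963. At least 2-fold rises were called for 4.28% of all genes tested. In the brightness class that holds Spn88Eb (mean signals of 91.1 to 751) the median log2 change was 0.16 and the 99th percentile 2.04.

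The gene next to it, Spn88Ea, is also a serpin. The log2 ratio of Spn88Eb to Spn88Ea within an array lay between −4.15 and −3.57 on the Tip60 RNAi arrays and between −6.21 and −5.91 on the eGFP arrays. The mean ratios differed by 2.07, and the arrays of the treatments did not overlap. The pair was chosen after both changes were seen, so no test is given. These ratios compare changes and not transcript levels, since probe sets differ in brightness for the same amount of RNA. Of the genes that flank the pair, CG42542 before Spn88Ea and Mau2 after Spn88Eb were not called (log2 changes 0.05 and −0.15, limma adjusted p = 0.661 and 0.151). As deposited the next genes outward were called higher, Kpc1 by 0.88 and CG6654 by 0.41 on the log2 scale (limma adjusted p = 0.0411 and 0.0013). Kpc1 was dim, with 112 ± 27.4 on the Tip60 RNAi arrays and 60.9 ± 15.9 on the eGFP arrays (SD). The constant shifts of scaling described below lower both changes. These neighbours follow the RefSeq gene order and were looked up after the result for Spn88Eb was known.

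**Figure D3:**
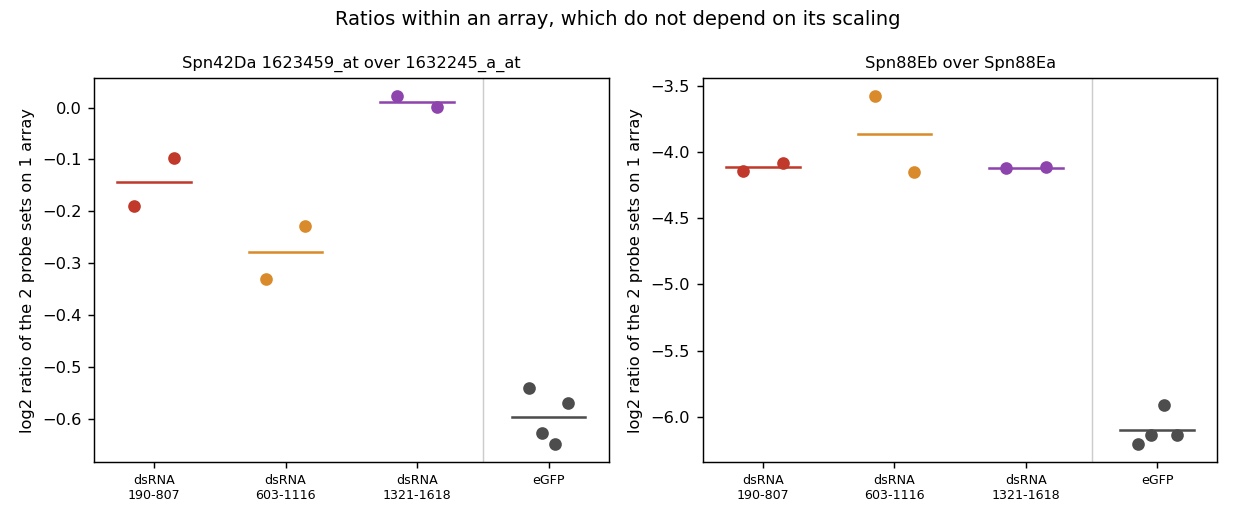
Log2 ratio of 2 probe sets on the same array, for the Spn42Da sets (left) and for Spn88Eb over Spn88Ea (right), with 1 dot per array, lines at the group means and the Tip60 dsRNAs left of eGFP. In both panels all 6 Tip60 RNAi arrays lie above all 4 eGFP arrays, by 0.46 and 2.07 on average.

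Spn55B fell with each dsRNA. Its signal was 2715 and 2377 with dsRNA 190-807, 2341 and 2275 with dsRNA 603-1116 and 2466 and 2651 with dsRNA 1321-1618, against 2913, 3312, 3253 and 3132 on the eGFP arrays. The groups did not overlap. The log2 change was −0.35 (SE 0.07, limma adjusted p = 0.00059). By dsRNA it was −0.31, −0.45 and −0.30, each called (adjusted p = 0.0159, 0.00119 and 0.0174). After quantile normalization the fall of Spn55B was no longer called with dsRNA 190-807 (log2 change −0.25, limma adjusted p = 0.0561) or with dsRNA 1321-1618 (−0.25, adjusted p = 0.0539), while it was with dsRNA 603-1116 (−0.39, adjusted p = 0.00456).

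The 3 dsRNAs were then set side by side. Against eGFP, dsRNAs 190-807 and 603-1116 each called 1 of the 7 genes higher and 2 lower, and dsRNA 1321-1618 called 2 higher and 2 lower. The same calls over all genes tested were 11.1% higher and 13.2% lower for dsRNA 190-807, 13.4% and 16.4% for dsRNA 603-1116 and 11.8% and 14.6% for dsRNA 1321-1618. These comparisons share the 4 eGFP arrays. The limma F-test found a difference among dsRNAs for 0 of the 7 genes by adjusted p and for 0 at an unadjusted p under 0.05 (the lowest was 0.0852, for Spn88Ea), against 0.0362% of all genes tested by adjusted p. Across the arrays of each dsRNA, mean signals of Spn88Eb were 692, 766 and 732 in the order of positions, and those of Spn77Ba were 1891, 1720 and 1973, all with overlapping arrays.

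**Figure D4:**
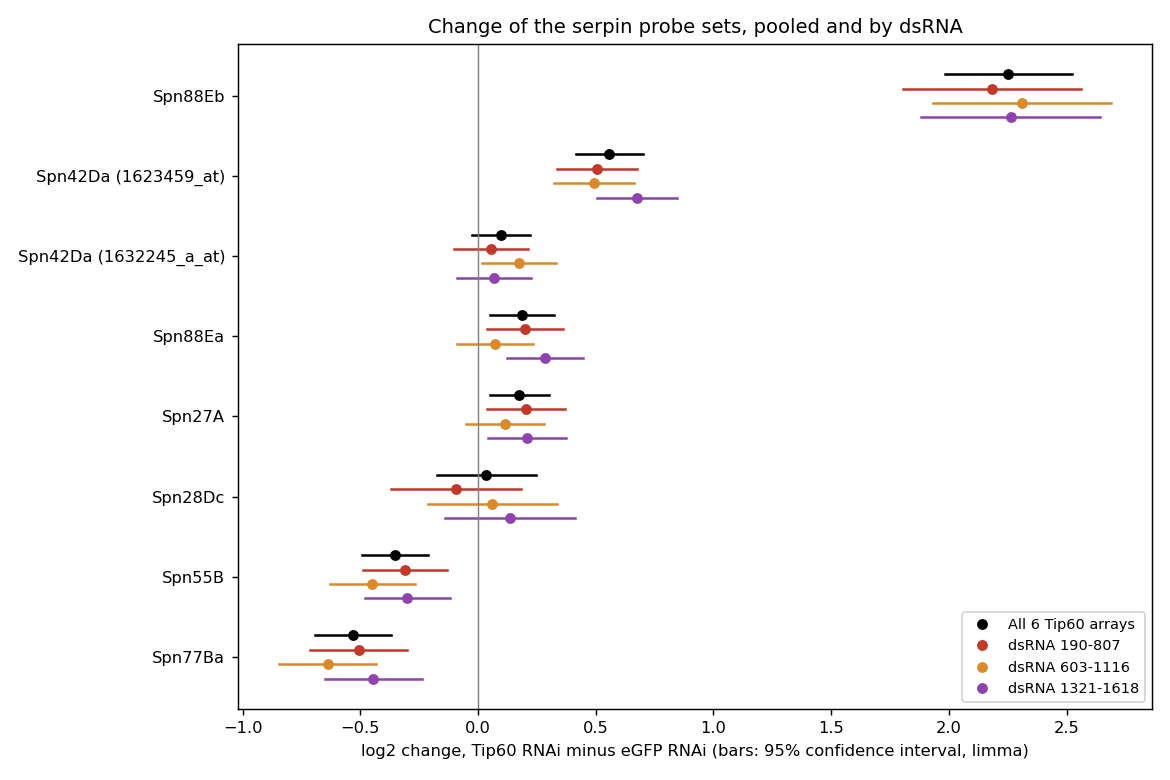
Log2 change of the 8 serpin probe sets, Tip60 RNAi minus eGFP RNAi, with 95% confidence intervals from limma, for all 6 Tip60 arrays and for each dsRNA. Spn88Eb lies between 2.18 and 2.31 and Spn77Ba between −0.64 and −0.45 with every dsRNA, whereas the intervals of Spn27A and Spn88Ea come close to 0 for all 6 arrays and include 0 with dsRNA 603-1116.

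The sign of the smaller changes depended on how arrays were scaled. The median log2 change over all probe sets tested was 0.08 as deposited. Centring each array on brighter probe sets made it −0.04, centring on the array median −0.43, hybridization spike-in scaling −0.47 and poly-A spike-in scaling −0.67, because each of these 4 lowers every change by 1 constant. Spn88Eb stayed higher under all 6 other scalings, with log2 changes from 1.502 (poly-A spike-ins) to 2.14 (arrays centred on brighter probe sets), and kept its call. Spn55B and Spn77Ba stayed called falls under all 6, although the 4 constants could not have reversed them. Quantile normalization gave −0.30 for Spn55B and −0.48 for Spn77Ba, and cyclic loess gave −0.32 and −0.49.

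The rise of Spn42Da probe set 1623459_at kept its call under quantile normalization, under cyclic loess and when brighter probe sets were the centre. It was 0.05, 0.01 and −0.19 with the 3 larger constant shifts (array median, hybridization and poly-A spike-ins), none of them called. The rises of Spn27A and Spn88Ea were still called under quantile normalization and cyclic loess. Centring on brighter probe sets left log2 changes of 0.06 and 0.07 (limma adjusted p = 0.506 and 0.487), and the 3 larger shifts turned both negative.

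**Figure D5:**
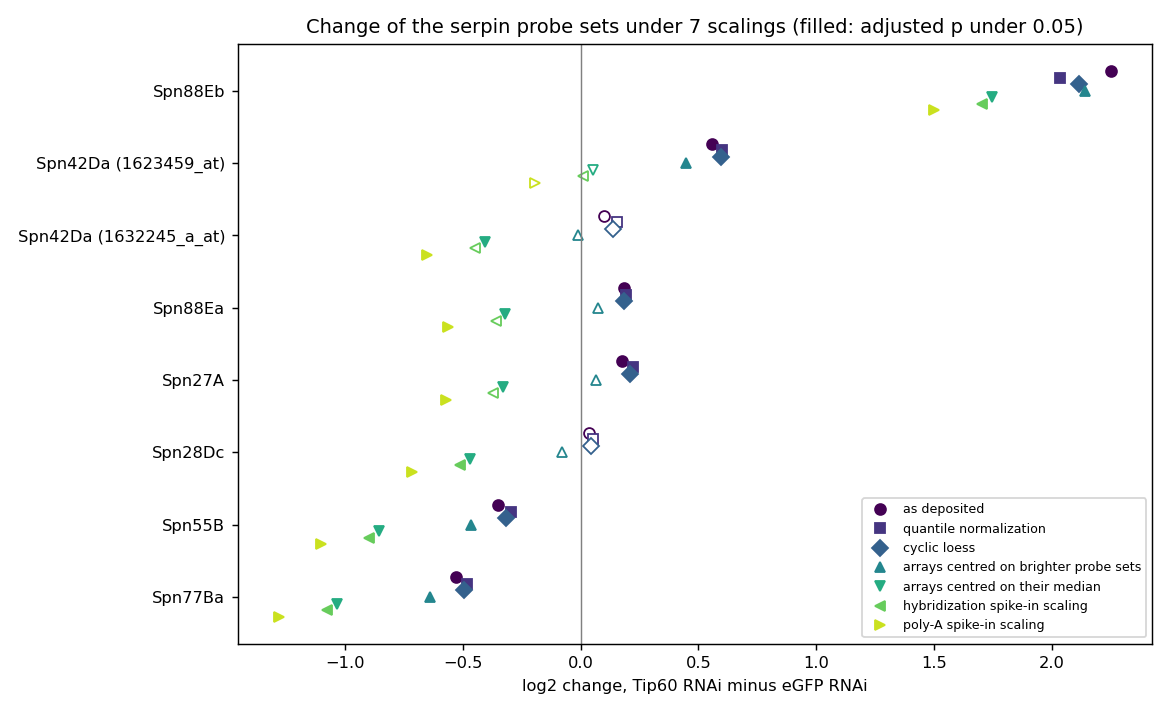
Log2 change (Tip60 RNAi minus eGFP RNAi) of the 8 serpin probe sets under 7 scalings of the arrays, with filled symbols where the limma adjusted p was under 0.05. Spn88Eb is to the right of 0 and Spn55B and Spn77Ba to the left of 0 under all 7, while Spn27A and Spn88Ea cross 0.

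Other serpins were mostly at background in these cells. Of 18 further serpin genes on the array 5 passed the filter (median log2 change 0.76, against 0.03 over all genes tested). By limma adjusted p 0 were higher and 1 was lower, and 1 each at an unadjusted p under 0.05. Over all genes tested 17.5% were called higher and 19.7% lower. The lower one was Spn42Dc, with 408 ± 18.6 on the Tip60 RNAi arrays and 498 ± 18.1 on the eGFP arrays (SD, n = 6 and 4; log2 change −0.29, limma adjusted p = 0.0316). It lies in the gene cluster of Spn42Da and Spn42Dd. This call was lost without eGFP replicate 2-1, 3-1 or 3-2 and without either array of dsRNA 603-1116. Spn28Da, Spn31A, Spn42De and Spn85F were not called. Spn28Da and Spn85F were dim, at 27.5 to 53.7 and 6.06 to 53.7 on the eGFP arrays. The eGFP mean of Spn85F, 34.2, was under the filter level of 34.5, so it was tested only because of the Tip60 RNAi arrays. The median of 0.76 rests in part on such dim genes, and nothing is read from it. Spn28F, found on the array in addition, was below the filter.

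The cascade proteases that serpins restrain were mostly dim as well. Of 13 listed proteases that act upstream of the Toll ligand 5 were measured (median log2 change −0.28, against 0.03 over all genes tested). By limma adjusted p 2 were lower and 0 higher, and at an unadjusted p under 0.05 2 were lower and 1 higher, where 19.7% of all genes tested were called lower and 17.5% higher. grass, a protease of that cascade, fell to 2484 ± 292 on the Tip60 RNAi arrays, against 3614 ± 154 on the eGFP arrays (SD, n = 6 and 4; log2 change −0.55, limma adjusted p = 6.81e-05). ndl, a protease of the egg chamber that starts the embryonic cascade, fell to 126 ± 8.6 on the Tip60 RNAi arrays, against 205 ± 23.1 on the eGFP arrays (log2 change −0.70, limma adjusted p = 0.0085). SPE and psh were below the filter.

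Among 8 measured genes of melanization the median log2 change was 0.36, and 4 rose while 2 fell, where 17.5% of all genes tested were called higher and 19.7% lower. Pu, which makes a cofactor of the first step towards melanin, rose to 2064 ± 380 on the Tip60 RNAi arrays, against 693 ± 110 on the eGFP arrays (SD, n = 6 and 4; log2 change 1.57, limma adjusted p = 2.28e-07). PPO1, a prophenoloxidase, fell by 0.38 on the log2 scale (limma adjusted p = 0.00228). With any of the 3 larger constant shifts 2 of these genes were called higher. Those shifts called 401, 295 and 227 of all 11261 probe sets tested higher (array median, hybridization and poly-A spike-ins).

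Of 10 genes from recognition of microbes to the Toll transcription factors, 5 rose and 0 fell as deposited by limma adjusted p (median 0.34), and 6 and 0 at an unadjusted p under 0.05, beside 17.5% called higher and 19.7% lower over all genes tested. Tl, the receptor, rose most, with 8163 ± 849 on the Tip60 RNAi arrays and 4382 ± 458 on the eGFP arrays (SD, n = 6 and 4; log2 change 0.90, limma adjusted p = 6.52e-07). This count changed with the scaling. It was 1 higher and 3 lower with arrays centred on their median. Hybridization spike-in scaling left 0 higher and 3 lower and poly-A spike-in scaling 0 higher and 5 lower. Of all 11261 probe sets tested, these 3 scalings called 401, 295 and 227 higher and 5460, 4718 and 6766 lower. The lower calls are therefore not read as particular to these genes.

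Of 6 measured peptide genes downstream of Toll 4 rose and 0 fell (median 1.34), the same counts by limma adjusted p and at an unadjusted p under 0.05, beside 17.5% and 19.7% of all genes tested. Among the 4, Drsl6 had the highest fitted log2 change (2.14, limma adjusted p = 0.0154), with 28.74 to 157.5 on the Tip60 RNAi arrays and 7.32 to 28.72 on the eGFP arrays. All of its eGFP arrays lay under the filter level of 34.5, so it was tested only because of the Tip60 RNAi arrays. Its call and the size of its change carry no weight here, although the 4 and the median of 1.34 include it. The median also includes Drsl5, which was dim (5.59 to 76.8 on the eGFP arrays) and was not called. The mean log2 signal of Drsl5 on the eGFP arrays was under the filter, so it too was tested only because of the Tip60 RNAi arrays. Nothing is read from this median. The antifungal peptide gene Drs had 5979 ± 1180 on the Tip60 RNAi arrays and 1438 ± 131 on the eGFP arrays (SD, n = 6 and 4; log2 change 2.04, limma adjusted p = 1.83e-09). The count was 2 after quantile normalization, after cyclic loess and with either spike-in scaling. Of all 11261 probe sets tested, these called 1524, 1572, 295 and 227 higher in that order (hybridization before poly-A). Of 5 measured inhibitors of other families 3 rose and 0 fell, by adjusted and unadjusted p alike (median 0.52). Over all genes tested the shares were the same 17.5% and 19.7%. The largest called rise was that of the cystatin-like gene CG31313 (log2 change 1.31, limma adjusted p = 0.000201). With any of the 3 larger shifts 1 inhibitor was called higher, beside 401, 295 and 227 of all 11261 probe sets tested.

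Markers of blood cells were also counted. All 10 listed hemocyte markers were measured and all 10 rose (median 0.65), where 17.5% of all genes tested were called higher, and their summed signal was 223713 to 274587 on the Tip60 RNAi arrays against 141683 to 163859 on the eGFP arrays. With the 3 larger shifts 3, 3 and 2 of them were called higher. Of all 11261 probe sets tested, those shifts called 401, 295 and 227 higher. The fat body, a source of immune proteins of the hemolymph, was represented by 6 genes with summed signals of 428 to 777 on the Tip60 RNAi arrays and 291 to 456 on the eGFP arrays. Of these, 3 were above the filter and 0 were called by limma adjusted p or at an unadjusted p under 0.05, while Fbp1, Fbp2 and Yp1 were below it. The listed muscle markers had 0 of 4 above the filter, the epidermal ones 1 of 3 and the neuronal ones 3 of 5, with brp called higher. The epidermal gene was Edg78E, with 44.0 to 93.9 on the Tip60 RNAi arrays and 6.25 to 29.9 on the eGFP arrays. It passed the filter only through the Tip60 RNAi arrays, so its call is not counted. The part of any of these in the serpin results was not tested.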

How the data were processed

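The series was measured on 10 Affymetrix arrays of SL2 cells with 18952 probe sets, 183 of them controls. The deposited intensity values are linear; per the submitters' processing notes the authors made them with GCOS 1.4, and for the treatment of background and probes, the method is not given in the sources used. Their trimmed mean (2% at each end) came to 1000.03 on every array.

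Log2 signals entered limma without renormalization. The fits used limma 3.58.1 in R 4.3.3 (eBayes with an intensity trend), fitted as 6 Tip60 RNAi arrays against 4 eGFP arrays and as 4 group means. Control probe sets and those under the 40th percentile of mean signal were left out. The code was tested on simulated data. Of 18769 fly probe sets 13647 had 1 gene symbol, 402 several and 4720 none, and 13544 matched Release 6 plus ISO1 MT by Entrez identifier. The table's coordinates are not used, as the build of the annotation is unknown. A gene with several probe sets was counted by its brightest.

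Groups came from the sample labels. The serpins and gene lists were chosen with earlier results of these data known. Named are each serpin, Tip60, and from each list except the cell type markers the called genes that rose and fell most. Also named are grass, brp and Edg78E. Drs, the flanking genes and genes that were not called were named after their values were seen. The number of arrays limits the precision.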

Additional observations from a re-analysis of the deposited data

Results flagged for a closer look

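The 11 serpin probe sets were each checked in the 6 Tip60 RNAi and the 4 eGFP arrays, 22 sets in all. Of these, 2 held an array set apart from the others, where chance gives about 1 set in 20. Both concern eGFP replicate 3-1 and genes below the filter. Its Spn43Aa signal was 33.4, against 2.50 to 4.24 on the other 3 eGFP arrays. Its nec signal was 13.8, against 13.0 on each of the others. The rule scores the gap as a share of the range, so nec was flagged although its signals differ little. No comparison called a change in either gene.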

How the results depend on the processing

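The rise of Spn88Eb and the falls of Spn55B and Spn77Ba kept direction and call under all 26 settings tried, with log2 changes of 1.502 to 2.34, −1.10 to −0.30 and −1.28 to −0.48. Probe sets called higher numbered 2002 as deposited. They numbered 401 with arrays centred on their median and 295 and 227 with the hybridization and poly-A spike-ins. In the same order those called lower numbered 5460, 4718 and 6766, against 1883 as deposited. Of the probe sets called in either direction, 6.84%, 5.88% and 3.25% were higher, against 51.5% as deposited. When brighter probe sets were the centre, this share was 33.8%. Leaving out 1 array gave 1663 to 2028 higher and 1604 to 1943 lower. Serpin genes called higher numbered 1 with each of the 4 shifts by a constant, with averaged pairs of arrays, and without dsRNA 1321-1618 or 190-807, and 1 to 3 without 1 array. Serpin genes called lower numbered 6 with arrays centred on the median or the poly-A spike-ins, and 2 without any 1 array.

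With the median, hybridization and poly-A scalings the log2 changes were −0.33, −0.37 and −0.57 for Spn27A, −0.32, −0.36 and −0.56 for Spn88Ea, −0.47, −0.51 and −0.72 for Spn28Dc, and −0.41, −0.45 and −0.65 for Spn42Da 1632245_a_at, while Spn42Da 1623459_at was −0.19 with the poly-A scaling. These flips follow from the shifts. By limma adjusted p, Spn28Dc was called lower with each of the median, hybridization and poly-A scalings. Spn27A, Spn88Ea and Spn42Da 1632245_a_at were called lower with the median and poly-A scalings only. With brighter probe sets Spn28Dc was −0.077 and Spn42Da 1632245_a_at −0.013. Spn28Dc was −0.038 to 0.10 when 1 array was left out, negative without eGFP replicate 2-1, eGFP replicate 3-2 or replicate 2 of dsRNA 1321-1618, and −0.016 without that dsRNA. Besides scaling and single arrays, the call of Spn27A was lost with averaged pairs and without dsRNA 1321-1618 or 190-807, and that of Spn88Ea also with no filter (0.0579) and no trend (0.0625). After quantile normalization, dsRNA 190-807 called 3 serpins higher and 1 lower, dsRNA 603-1116 called 2 higher, and dsRNA 1321-1618 called 1 lower, the lost falls being those of Spn55B; the cause was not tested. Numbers 1 and 3, shared by dsRNAs 190-807 and 603-1116, did not pair the arrays (deviations correlated at 0.0023), and with them as a replicate block the 3 dsRNAs called 1, 1 and 2 serpins higher and 2 lower each, as without it. The other lists gave 494 counts within 1.5 times of the main one and 78 beyond. Signals near 34.5 limit what can be said of dim members.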
